A study of Mus musculus with 8 samples.

Results

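Transcript levels were compared between mouse embryonic stem cells given dd-linc1393 (dd) and the same kind of cells given sh-linc1393 (sh), with 2 libraries in each group. These 4 libraries are part of a series of 8, which also holds 2 libraries of untreated wild-type cells (control) and 2 of cells given sd-linc1393 (sd). Embryonic stem cells are pluripotent cells kept in culture, and all 8 libraries were made from their total RNA. The control cells are labelled WT by genotype, and for the treated cells the labels repeat the treatment in place of a genotype. The question of the series is what linc1393, a long intergenic non-coding RNA, does in keeping such cells pluripotent. The labels do not say what dd and sd stand for, which line of stem cells was used, when cells were collected or whether libraries came from separate cultures. A p-value here therefore rests on the scatter among libraries alone, and that scatter could be purely technical. The 4 libraries were taken by their labels, and no measured value chose them. Genes were kept at a mean of at least 1 FPKM (fragments per kilobase of transcript, scaled to the library total) over the 4 libraries, which left 14038 of 52338 genes with values.

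Long non-coding RNAs are transcribed like messenger RNAs but are not translated, and many act in the nucleus together with chromatin proteins. In embryonic stem cells the transcription factors Pou5f1, Sox2 and Nanog hold the pluripotent state, and a second layer of factors such as Klf4, Esrrb and Zfp42 marks its naive form. When these factors are lost, cells start to express genes of the embryonic lineages or of the extraembryonic endoderm and trophoblast. The level of linc1393 itself was not analysed here, since none of the identifiers could be matched to it. Both groups were given a treatment named for the same RNA, so dd is set here against another treated group and not against untreated cells.

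The 4 libraries differed more by replicate number than by treatment. Across the 14038 genes, Spearman correlations were 0.913 between sh and dd of replicate 1 and 0.877 between those of replicate 2, but 0.512 between the sh libraries and 0.708 between the dd libraries. Genes are not independent replicates, and the correlations are descriptions only. The dd libraries were the deeper pair, with 19161799 and 20387065 reads assigned to genes against 13738591 and 13972322 in sh (3658368 to 20387065 over all 8 libraries). Of the genes with values, 35.0% and 37.7% were above 0 in sh and dd of replicate 1, against 89.0% and 62.4% in replicate 2. Olfactory receptors, normally made by sensory neurons of the nose, showed the same split. Of 1107 such genes, 7.5% and 7.68% were above 0 in sh and dd of replicate 1, and 97.8% and 50.5% in replicate 2. The part of this low-level signal in the results below was not tested. Each result is for this reason also given within each replicate number, as the dd library minus the sh library on the log2(FPKM + 1) scale.

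No gene passed the test between dd and sh. limma, run on log2(FPKM + 1) over all 8 libraries with Benjamini-Hochberg adjustment, called 0 genes higher in dd (0% of 14038) and 0 genes lower (0%). At an unadjusted p under 0.05 it had 21 genes, where 5% of the genes would be 702. This fit has no term for the replicate number, so differences between the numbers enter its spread and the standard errors (SE) given below. With such a term limma had 656 genes at an unadjusted p under 0.05 and also called 0. With voom weights on recovered reads limma also called 0 genes, with 11 at an unadjusted p under 0.05. All directions below are therefore values of these 4 libraries and not calls.

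The differences within the replicate numbers were also nearly unrelated to each other. The Pearson correlation of the 14038 differences was 0.0839 and the Spearman correlation 0.118, over genes that share their libraries and depth. In replicate 1 the dd library was higher for 60.9% of genes (median 0.15 log2), and in replicate 2 for 32.4% (median -0.29). Scaling moved these medians to 0.00 and 0.06 with median ratios and to -0.02 and 0.12 with quantile normalization. Within both numbers, 3117 genes were higher in dd (22.2%) and 3661 were lower (26.1%). With median ratio scaling the split was 3998 higher to 3171 lower, and with quantile normalization 4228 to 3378. At least 1 log2 unit in both numbers separated 43 genes that were higher (0.306%) and 88 that were lower (0.627%). Of the 43, 30 were processed pseudogenes and 7 protein-coding. Of the 88, 25 were protein-coding, 22 were small nucleolar RNA genes and 20 were processed pseudogenes. Both dd libraries lay above both sh libraries for 899 genes (6.4%) and below them for 969 (6.9%).

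**Figure D1:**
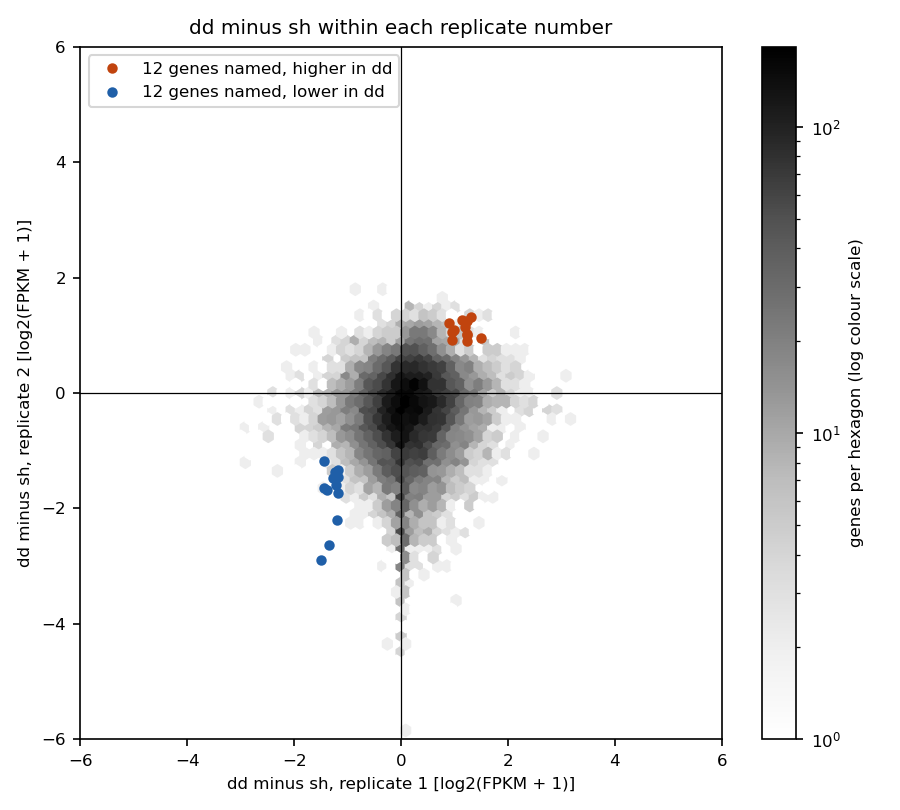
Difference of dd minus sh in replicate 1 (x axis) and in replicate 2 (y axis), both in log2(FPKM + 1), with the number of genes per hexagon in grey for the 14038 genes kept. The cloud has no diagonal trend, with a Pearson correlation of 0.0839, and the 12 named genes on each side (coloured points) lie in the corners where both differences have the same sign.

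The 12 named genes that were higher in dd included transcripts of mitochondrial respiration and of its assembly. Genes were named by the smaller of their differences in the 2 replicate numbers, so these differences describe the choice. Ccnq (ENSMUSG00000049489, chromosome 11, 78750506 to 78751729, GRCm38) encodes cyclin Q, the partner of the kinase Cdk10. It had 6.24 and 18.6 FPKM in sh (replicates 1 and 2) and 16.9 and 47.7 FPKM in dd, so dd was 2.70-fold and 2.56-fold higher within the numbers while the groups overlapped. Cfap36 (chromosome 11, 29221532 to 29247409), which encodes a cilium-associated protein, had 3.18 and 7.17 FPKM in sh and 8.88 and 18.4 FPKM in dd, with no overlap. Its log2 difference was 1.24 (SE 0.78, n = 2 per group, limma adjusted p = 1).

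Within the mitochondria-related genes, mt-Co1 and mt-Co2 encode catalytic subunits of cytochrome c oxidase. mt-Co1 (mitochondrial genome, 5328 to 6872) had 6725 and 2246 FPKM in sh and 14797 and 5382 in dd. mt-Co2 (7013 to 7696) had 10958 and 4074 FPKM in sh and 25102 and 9064 in dd. Both were more than 2-fold higher in dd within each number, and for both the sh library of replicate 1 lay above the dd library of replicate 2. Tmem70, an assembly factor of the mitochondrial ATP synthase (chromosome 1, 16665207 to 16678275), had 15.8 and 19.3 FPKM in sh and 38.8 and 40.0 in dd, which did not overlap (log2 difference 1.13, SE 0.55, limma adjusted p = 1). Mrps22, a protein of the small mitochondrial ribosome subunit, had 1.31 and 4.88 FPKM in sh and 4.43 and 10.9 in dd. Its highest sh value was just above its lowest dd value.

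The other genes on this side had varied roles. Dnajb9, a co-chaperone of the endoplasmic reticulum, had 6.71 and 7.41 FPKM in sh and 14.3 and 16.9 in dd. Siah1a, a ubiquitin ligase gene, had 8.47 and 8.40 FPKM in sh and 17.3 and 16.7 in dd. Arl14epl had 41.5 and 17.7 FPKM in sh and 77.7 and 42.4 in dd. The groups did not overlap for these 3 genes. Nxt1, a cofactor of messenger RNA export, had 13.6 and 39.2 FPKM in sh and 27.1 and 82.5 in dd. Acbd7, which encodes an acyl-CoA-binding domain protein, had 1.09 and 8.98 FPKM in sh and 4.89 and 18.3 in dd, with 8 reads in sh of replicate 1. Zfp944, a zinc finger gene, had 0.575 and 3.37 FPKM in sh and 2.70 and 7.15 in dd. The groups overlapped for Nxt1, Acbd7 and Zfp944. Rhox5, the next gene outside the 12, had within-number differences of 0.86 and 1.12, beside 0.89 and 1.21 for Arl14epl. Some of these values rest on reads that other genes could also have given: 100% of the sampled 31-base stretches of mt-Co2, 63.1% of those of mt-Co1, 39% of those of Siah1a and 21.9% of those of Zfp944 occur in another gene's transcripts.

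The 12 named genes that were lower in dd included 3 genes of protein folding in the endoplasmic reticulum. Pdia4, a protein disulphide isomerase (ENSMUSG00000025823, chromosome 6, 47796141 to 47813430), had 111 and 46.6 FPKM in sh and 38.5 and 5.44 FPKM in dd. The groups did not overlap, and dd was 2.89-fold and 8.57-fold lower within the numbers (log2 difference -2.20, SE 1.05, n = 2 per group, limma adjusted p = 1). Hyou1, a chaperone that works with Hspa5 (chromosome 9, 44379490 to 44392369), had 120 and 7.42 FPKM in sh and 52.1 and 1.53 in dd. Sdf2l1, a component of chaperone complexes in the same compartment (chromosome 16, 17130138 to 17132383), had 555 and 28.7 FPKM in sh and 246 and 9.87 in dd. For Hyou1 and Sdf2l1 the replicate numbers lay over 10-fold apart within each group, so dd of replicate 1 exceeded sh of replicate 2.

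Among the others, Pym1, which takes exon junction complexes off messenger RNAs (chromosome 10, 128747889 to 128766564), had 5.32 and 18.2 FPKM in sh and 1.496 and 2.07 in dd. Narf, the gene of a prelamin A recognition factor, had 12.2 and 5.35 FPKM in sh and 4.44 and 1.29 in dd. Fam110a had 5.64 and 4.99 FPKM in sh and 1.82 and 1.33 in dd. These 3 did not overlap between the groups, and their log2 differences were -1.99 (SE 1.10), -1.37 (SE 0.66) and -1.30 (SE 0.65), each with a limma adjusted p of 1. Mov10, an RNA helicase associated with Argonaute proteins (chromosome 3, 104794836 to 104818563), had 54.5 and 13.1 FPKM in sh and 19.5 and 3.51 in dd. Crabp1, which binds retinoic acid in the cytoplasm (chromosome 9, 54764748 to 54773110), had 6.35 and 35.2 FPKM in sh and 1.82 and 10.3 in dd. Both overlapped between the groups because the replicate numbers differed in level, while dd was lower within each.

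For the last 4 the replicate numbers lay far apart. Arf5, a small GTPase of Golgi traffic, had 91.6 and 18.1 FPKM in sh and 39.1 and 3.14 in dd. Pcyox1l, a prenylcysteine oxidase-like gene, had 56.3 and 4.79 FPKM in sh and 23.8 and 0.927 in dd. Pced1b had 264 and 6.74 FPKM in sh and 116 and 2.08 in dd. In each of these, dd of replicate 1 lay above sh of replicate 2. Ppwd1, a cyclophilin-type prolyl isomerase, had 225 and 5.64 FPKM in sh and 82.7 and 1.93 in dd, in the same order. Creb3l1, the next gene outside the 12, had differences of -1.17 and -1.45, equal to those of Sdf2l1 at 2 decimals. Mov10 shares 17.6% of its sampled stretches with other genes, and Ppwd1 overlaps Cenpk on the other strand.

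**Figure D2:**
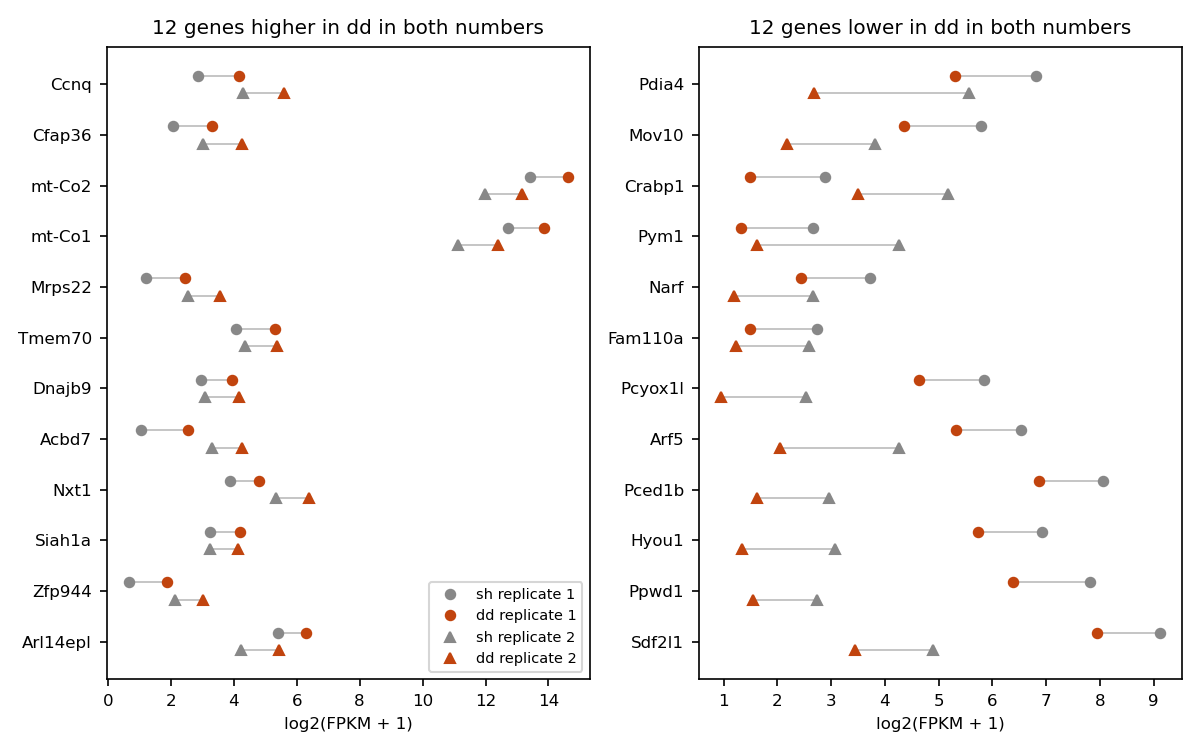
Level in log2(FPKM + 1) (x axis) of the 12 named genes higher in dd (left) and the 12 lower in dd (right), with circles for replicate 1, triangles for replicate 2, grey for sh, orange for dd, and a line joining sh and dd of the same number. Every line on the left runs up from sh to dd and every line on the right runs down, and in several genes, such as Hyou1 and Pced1b, the shapes lie farther apart than the colours.

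Of the core pluripotency factors, Nanog was close to equal in the 4 libraries and Sox2 differed in replicate 2. Nanog (ENSMUSG00000012396, chromosome 6, 122707489 to 122714633) had 230 and 247 FPKM in sh and 286 and 275 FPKM in dd. The groups did not overlap, and dd was 1.24-fold and 1.11-fold higher within the numbers (log2 difference 0.23, SE 0.63, limma adjusted p = 1). Sox2 (chromosome 3, 34650405 to 34652461) had 177 and 19.7 FPKM in sh and 235 and 371 FPKM in dd. The sh library of replicate 2 stood alone at the low end, and the differences within the numbers were 0.41 and 4.17. The log2 difference of the groups was 2.29 (SE 1.08, limma adjusted p = 1), and 0.74 without that library. The Sox2 gene sits within Sox2ot, a non-coding gene read from the same strand. Pou5f1 (chromosome 17, 35506018 to 35510772) had 24.2 and 14.7 FPKM in sh and 21.03 and 53.1 FPKM in dd, so dd was the lower library in replicate 1 (difference -0.19) and the higher in replicate 2 (1.78). Of the sampled stretches of Pou5f1, 20% occur in other genes.

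Most genes of the general pluripotency list were higher in dd. Of its 21 members kept, 12 were higher in both numbers (57.1%, beside 22.2% of all genes) and 1 was lower (4.76%, beside 26.1%). The counts were 11 and 3 with median ratio scaling and 11 and 2 with quantile normalization. The median differences were 0.31 in replicate 1 and 0.16 in replicate 2. Tdgf1, a Nodal co-receptor, had 169 and 406 FPKM in sh and 217 and 626 in dd. Dppa5a, an RNA-binding protein of stem cells, had 373 and 5866 FPKM in sh and 557 and 7616 in dd. Its direction did not hold with quantile normalization, and 55.3% of its sampled stretches are shared. The groups overlapped for Tdgf1 and Dppa5a.

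The naive pluripotency list was mixed, with 9 of 21 members higher in dd in both numbers and 7 lower. The 9 were 42.9%, beside 22.2% of all genes, and the 7 were 33.3%, beside 26.1%. The counts were 6 and 4 with median ratio scaling, and 9 and 4 both with quantile normalization and after centring on GC content. Zfp42 had 298 and 220 FPKM in sh and 361 and 273 in dd, and Klf4 had 98.1 and 73.8 FPKM in sh and 109 and 87.4 in dd. Both were higher in dd by at most 0.31 log2 within each number. Dppa3, a maternal factor that protects DNA methylation in the early embryo, had 0.734 and 1.36 FPKM in sh and 1.35 and 9.95 in dd, so most of its difference came from replicate 2. Sox15, a Sox2 relative, had 5.16 and 31.7 FPKM in sh and 3.21 and 11.1 in dd. Tet2, which oxidizes methylated cytosine, had 183 and 2.02 FPKM in sh and 131 and 0.820 in dd. The formative and primed list, of genes gained as cells leave the naive state, had 2 of 12 members higher and 6 lower. The 6 were 50%, beside 26.1% of all genes, and the lower count was 6 under both scalings and 5 after centring on GC content. Besides Crabp1, Zic2 was among the lower ones, with 2.48 and 1.42 FPKM in sh and 1.07 and 0.579 in dd, and its groups did not overlap.

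Markers of the embryonic and extraembryonic lineages were low in most libraries, and in 3 of the 5 lists below more members were lower than higher in dd. Fewer cells of a lineage and less RNA per cell cannot be told apart in such bulk samples. Of 16 primitive endoderm genes kept, 11 were lower in dd in both numbers (26.1% of all genes were) and 1 was higher. The lower count was 9 with median ratio scaling and 2 with quantile normalization, so it depended on the scaling. The 18 genes of the list summed to 228 and 132 FPKM in sh and 152 and 122 FPKM in dd. Sox17, an endoderm transcription factor, had 5.54 and 1.005 FPKM in sh and 3.02 and 0.308 in dd. Gata6, which starts the endoderm program, had 5.59 and 1.14 FPKM in sh and 3.94 and 0.467 in dd. Lrp2, an endocytic receptor, had 3.57 and 0.656 FPKM in sh and 1.56 and 0.129 in dd. All 3 overlapped between the groups.

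Of the neuroectoderm list 5 of 16 genes were kept, and 4 were lower in dd in both numbers and 0 higher (2 and 1 with quantile normalization). Tubb3, a neuronal tubulin, had 5.57 and 5.29 FPKM in sh and 4.64 and 1.39 in dd, and Sox11 had 4.85 and 0.896 FPKM in sh and 2.30 and 0.384 in dd. The list summed to 31.7 and 24.9 FPKM in sh and 24.2 and 10.9 in dd. Of 7 trophoblast genes kept, 3 were lower and 1 was higher, but 2 each way with quantile normalization. The keratin gene Krt8 had 3.57 and 4.20 FPKM in sh and 0.826 and 2.03 in dd, and 35.9% of its stretches are shared. The mesoderm and primitive streak list kept 4 of 16 genes, with 1 higher and 0 lower in both numbers. Of 9 genes of the 2-cell-like state, a rare state of cultured stem cells, 4 were higher and 2 lower. Zscan4d had 5.32 and 2.71 FPKM in sh and 10.2 and 4.17 in dd, and shares 65.1% of its stretches with its gene family.

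Markers of fibroblast feeder cells, on which stem cells are often grown, were near 0. Of 14, only Fbln1 passed the filter, and 6 to 7 of the 14 were at 0 in the replicate 1 libraries and 0 to 1 in the replicate 2 libraries. The list summed to 20.4 and 29.7 FPKM in sh and 10.5 and 9.63 in dd, most of it in Fbln1. Fbln1, a matrix glycoprotein, had 19.3 and 19.6 FPKM in sh and 9.06 and 6.49 in dd, so the groups did not overlap and dd was 2.13-fold and 3.03-fold lower (log2 difference -1.24, SE 0.52, limma adjusted p = 1).

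Chromatin regulators moved in both directions. Of 22 Polycomb genes kept, which silence developmental genes, 10 were higher in dd in both numbers and 5 were lower. The 10 were 45.5%, beside 22.2% of all genes, and the 5 were 22.7%, beside 26.1%. The counts were 8 and 4 with median ratio scaling and 9 and 5 with quantile normalization. Suz12, a core subunit of the complex that methylates H3K27, had 54.3 and 42.7 FPKM in sh and 89.3 and 70.6 in dd. It was 1.65-fold higher in each number, and its groups did not overlap (log2 difference 0.71, SE 0.79, limma adjusted p = 1). Ezh1, an H3K27 methyltransferase of the same complex, went the other way with 1.27 and 4.22 FPKM in sh and 0.610 and 1.48 in dd. Of 18 genes of the H3K4 methyltransferase complexes, which mark active genes, 2 were higher and 6 lower (33.3%, beside 26.1% of all genes), but 2 and 3 with quantile normalization and 3 each way after centring on GC content. Men1, a subunit of such a complex, had 4.18 and 5.49 FPKM in sh and 1.63 and 2.46 in dd, with no overlap. Of 18 genes of DNA methylation and of H3K9 repression, 3 were higher and 2 lower (9 and 2 with median ratio scaling), and the H3K9 methyltransferase gene Ehmt2 had 4.84 and 7.24 FPKM in sh and 4.01 and 3.21 in dd. Of 15 genes that process small RNAs or act in RNA interference, 3 were higher and 4 lower, but 6 and 1 with quantile normalization.

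Innate immune genes gave few values, since 11 of 32 interferon and double-stranded RNA response genes passed the filter. Of these, 0 were higher in dd in both numbers and 1 was lower, but 4 were higher and 2 lower with median ratio scaling. The gene that was lower, Bst2, encodes an antiviral membrane protein and had 0.322 and 21.8 FPKM in sh and 0.0578 and 2.34 in dd. In replicate 1 these values rest on 4 reads and 1 read and in replicate 2 on 275 and 43 reads.

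Signalling genes of the LIF and Stat3 pathway, which supports self-renewal, were mostly lower in dd. In both numbers 8 of 13 were lower (61.5%, beside 26.1% of all genes) and 1 was higher. Their median GC content was 56.0%. Of the protein-coding genes in the highest of 5 equal bins of GC content, which holds this value, 39.8% were lower in both numbers. The lower count of the list was 5 with median ratio scaling, 4 with quantile normalization and 3 after centring on genes of like GC content. Tyk2, a Janus kinase, had 2.58 and 3.0 FPKM in sh and 1.90 and 1.27 in dd, with no overlap. In the FGF and ERK pathway, which drives exit from the naive state, 3 of 19 genes were higher and 6 lower, but 4 each way with median ratio scaling and 6 and 3 with quantile normalization. Map2k1, the kinase that activates ERK, had 18.5 and 41.5 FPKM in sh and 38.5 and 73.3 in dd, and overlaps Uchl4 on the other strand. Dusp4, a phosphatase induced by ERK, had 2.74 and 0.601 FPKM in sh and 1.05 and 0.125 in dd. The value of Dusp4 in dd of replicate 2 rests on 7 reads, and its difference there was 0.05 with quantile normalization and 0.17 after centring on GC content.

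In the Wnt and beta-catenin list, 3 of 17 genes were higher and 6 lower, but 4 and 2 after centring on GC content. Lgr4, a receptor of R-spondins, had 922 and 3.55 FPKM in sh and 602 and 1.54 in dd, and Cdx1, a Wnt target, had 1.33 and 5.15 FPKM in sh and 0.328 and 2.75 in dd. In the Nodal and BMP list, 6 of 21 were higher and 7 lower (6 and 5 with median ratio scaling). Acvr2b, a receptor for activin and Nodal, had 44.9 and 5.03 FPKM in sh and 25.4 and 1.76 in dd. Apela, a peptide hormone gene of stem cells, had 50.5 and 71.3 FPKM in sh and 70.02 and 142 in dd, and 28.6% of its stretches are shared. The groups overlapped for each of these 4 genes.

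Of 21 genes of p53 and its targets, which respond to DNA damage, 3 were higher in dd in both numbers and 8 lower. The 8 were 38.1%, beside 26.1% of all genes, and the 3 were 14.3%, beside 22.2%. Trp53 itself had 160 and 12.6 FPKM in sh and 134 and 1.19 in dd, so its difference was -0.26 in replicate 1 and -2.64 in replicate 2. Phlda3, a p53-induced inhibitor of Akt, had 8.12 and 43.3 FPKM in sh and 5.05 and 5.22 in dd, with no overlap. Gdf15, a secreted stress factor, had 1.38 and 13.5 FPKM in sh and 0.282 and 4.26 in dd. Mdm2, the ubiquitin ligase for p53 and one of its targets, was on the other side with 60.4 and 31.7 FPKM in sh and 84.9 and 42.7 in dd. The lower count of the list was 4 with median ratio scaling, 5 with quantile normalization and 10 after centring on GC content. The higher count in these settings was 1, 2 and 2.

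Glycolysis genes had medians of 0.48 in replicate 1 and -0.65 in replicate 2, beside 0.15 and -0.29 for all genes kept, with 4 of 22 higher and 4 lower in both. Pgam1, a mutase of the pathway, had 99.0 and 232 FPKM in sh and 149 and 305 in dd, with 56.4% of its stretches shared. Pfkl, a phosphofructokinase subunit, had 1.20 and 21.8 FPKM in sh and 0.805 and 4.36 in dd. Cholesterol genes had medians of 0.43 and -0.31, the latter close to that of all genes, with 3 of 21 higher and 5 lower in both. With median ratio scaling the medians were 0.26 and 0.0062 and the counts 9 and 4, and with quantile normalization 0.25 and 0.08 and 9 and 6. Insig1, which retains the activator of cholesterol synthesis in the endoplasmic reticulum, had 708 and 31.4 FPKM in sh and 477 and 10.6 in dd. Idi1, an enzyme of the pathway, had 13.2 and 20.3 FPKM in sh and 20.9 and 26.5 in dd, and shares 47.8% of its stretches. Of 20 glutathione and thioredoxin genes 7 were higher and 6 lower. Nqo1, a quinone reductase, had 174 and 27.0 FPKM in sh and 109 and 18.7 in dd, and Gstm1, a glutathione transferase with 38.1% shared stretches, had 10.97 and 34.5 FPKM in sh and 6.52 and 16.3 in dd. The Atf4 amino acid stress list had 5 of 19 higher and 6 lower (5 and 4 with median ratio scaling), and among the higher ones the arginine transporter Slc7a3 had 19.6 and 3.10 FPKM in sh and 30.4 and 4.498 in dd.

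Because Pdia4, Hyou1, Sdf2l1 and Creb3l1 were among the lowest genes, a list of endoplasmic reticulum chaperones and folding enzymes was added after their values were seen. It is therefore not independent of them. Secreted and membrane proteins fold in this compartment, and when unfolded proteins gather there, the transcription factors Atf6 and Xbp1 raise the chaperone genes. Of 35 members kept, 14 were lower in dd in both numbers (40%, beside 26.1% of all genes) and 5 were higher (14.3%, beside 22.2%). With median ratio scaling 9 were lower and 10 higher, so the direction was lost, and with quantile normalization 12 were lower and 9 higher. The chaperones Hspa5, Canx and Pdia6 did not share the difference of Pdia4. Hspa5, the main chaperone of the compartment, had 35.5 and 108 FPKM in sh and 51.5 and 86.7 in dd, with differences of 0.52 and -0.32. Canx, a lectin chaperone, had 343 and 138 FPKM in sh and 304 and 131 in dd. Pdia6, another disulphide isomerase, had 44.8 and 118 FPKM in sh and 66.5 and 112 in dd.

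Calr, the soluble partner of Canx, had 296 and 138 FPKM in sh and 227 and 27.2 in dd, so dd was 1.30-fold lower in replicate 1 and 5.06-fold lower in replicate 2. Creb3l1, a membrane-bound transcription factor, had 1.43 and 2.45 FPKM in sh and 0.0802 and 0.264 in dd, from 51, 89, 4 and 14 reads. Kdelr1, which returns chaperones from the Golgi, had 23.1 and 47.3 FPKM in sh and 11.1 and 21.1 in dd, and overlaps Grin2d on the other strand. The groups did not overlap for Creb3l1 and Kdelr1. Dnajb9, a co-chaperone of Hspa5 and a target of Xbp1, was the list's highest in dd relative to sh, with the values given above.

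Promoters of some of these genes are shown because the endoplasmic reticulum stress element, the site through which Atf6 acts, can be searched in them by its letters. The pattern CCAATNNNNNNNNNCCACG was searched on both strands from 250 bases before to 50 bases after the start of each gene in the RefSeq promoters of GRCm38.p6. It was present in 37 of 27025 genes (0.137%) and in 8 of the 28 list members that were kept and had a promoter there (28.6%). The list is of chaperone genes, which Atf6 raises, so this share describes the list and not the difference between dd and sh. Only those of the 8 whose FPKM values are given above are shown. Below, each line runs 5′ to 3′ on the strand of the gene and capitals mark the match, which in Calr reads on the other strand. The windows are chr8:84847060-84847108 for Calr, chr2:34772010-34772058 for Hspa5, chr12:17266476-17266524 for Pdia6 and chr11:50325785-50325833 for Canx.
Calr: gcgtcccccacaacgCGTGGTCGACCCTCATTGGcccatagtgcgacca
Hspa5: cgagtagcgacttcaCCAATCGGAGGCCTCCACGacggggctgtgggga
Pdia6: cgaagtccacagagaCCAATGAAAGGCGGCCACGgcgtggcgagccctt
Canx: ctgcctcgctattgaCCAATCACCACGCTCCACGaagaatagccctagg
Of the 8 members with the pattern, 2 were lower in dd in both numbers (Calr and Canx) and 0 were higher. Of the 20 without it in this window, 9 were lower and 4 were higher. Among all genes kept, 26.1% were lower and 22.2% higher. The list was added after values were seen, so these counts describe its members and test nothing about the pattern. Creld2, Dnajc3, Hsp90b1 and Syvn1, which also had the pattern, were higher in replicate 1 and lower in replicate 2. Pdia4, Hyou1, Sdf2l1, Creb3l1, Kdelr1 and Dnajb9 were not among the members with the pattern. Only 28 of the 35 members kept had a promoter there, so this alone does not show that the promoters of these genes were searched and lack it.

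The protein-coding and ribosomal RNA genes of the mitochondrial genome were nearly all on the same side. This genome encodes proteins of the respiratory chain and of ATP synthase, ribosomal RNAs and transfer RNAs, which are cut from long shared transcripts. Of the 15 protein-coding and ribosomal RNA genes, 14 were higher in dd in both numbers and 0 were lower. The 14 were 93.3%, beside 22.2% of all genes, and the medians were 0.56 in replicate 1 and 0.74 in replicate 2. With median ratio scaling 10 were higher and 0 lower, with medians of 0.34 and 1.20. With quantile normalization 10 were higher and 1 was lower, with medians of 0.30 and 0.09, the latter below the 0.12 of all genes. mt-Nd1, a subunit of complex I (2751 to 3707), had 7946 and 2749 FPKM in sh and 14042 and 5190 in dd, with differences of 0.82 and 0.92 (log2 difference 0.87, SE 1.18, limma adjusted p = 1). None of its sampled stretches is shared, and it overlaps mt-Ti on the same strand. mt-Atp6, a subunit of ATP synthase, had 8571 and 3365 FPKM in sh and 12619 and 8715 in dd, and all of its stretches are shared. The exception was the large ribosomal RNA mt-Rnr2, with 942 and 4348 FPKM in sh and 1035 and 4305 in dd and differences of 0.14 and -0.01. Its direction reversed with quantile normalization and after centring on genes of like GC content.

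The mitochondrial share of all reads was 6.38% in sh and 10.8% in dd of replicate 1, and 3.32% and 5.66% in replicate 2. The median GC content of the 15 genes was 36.0%, against 49.0% for all genes kept, and after centring on genes of like GC content 10 of the 15 were higher in both numbers and 1 was lower. The transfer RNA genes of the same genome went the other way. Of 22, 0 were higher in dd in both numbers and 13 were lower (59.1%, beside 26.1% of all genes), with medians of -0.67 and -0.83. The lower count was 9 with median ratio scaling and 14 with quantile normalization. mt-Td, the transfer RNA for aspartate (6942 to 7011, between mt-Co1 and mt-Co2), had 17 and 52 reads in sh and 10 and 35 reads in dd, or 17.7 and 53.2 FPKM against 7.46 and 24.5.

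**Figure D3:**
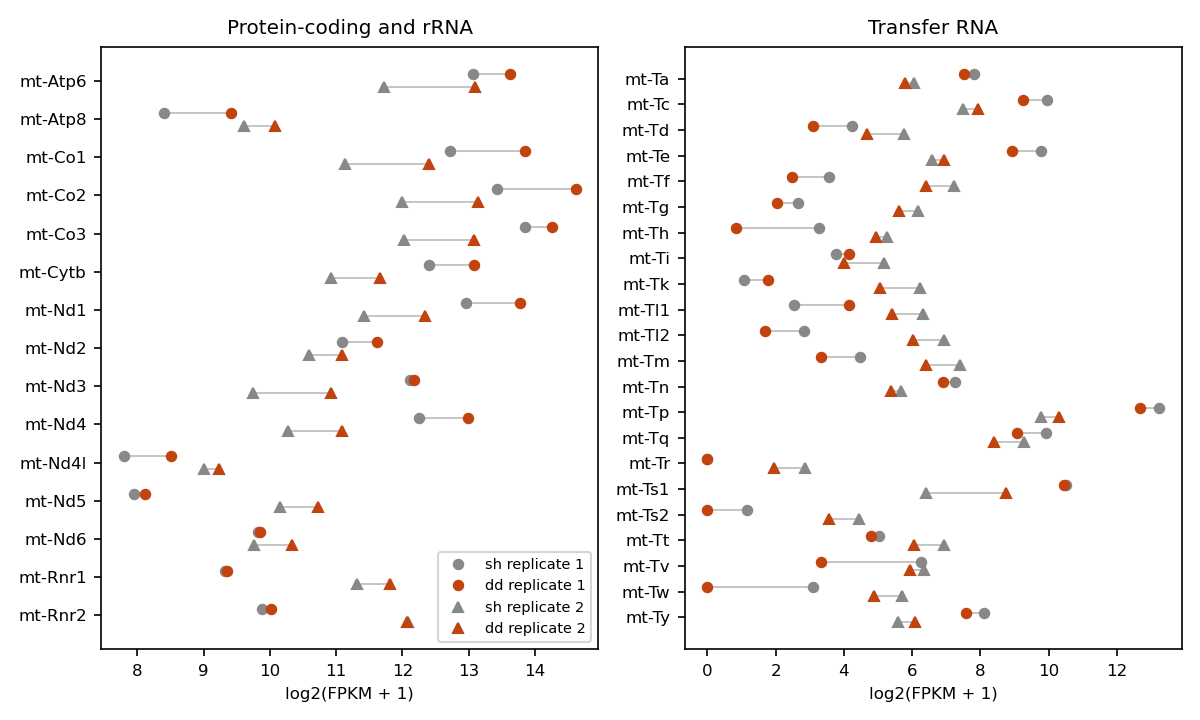
Level in log2(FPKM + 1) (x axis) of the 15 protein-coding and ribosomal RNA genes (left) and the 22 transfer RNA genes (right) of the mitochondrial genome, with circles for replicate 1, triangles for replicate 2, grey for sh and orange for dd. On the left, 14 of 15 genes have dd to the right of sh in both numbers, and on the right, 0 of 22 do.

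Nuclear genes of the same pathways were less one-sided. Of 91 nuclear-encoded respiratory chain genes, 30 were higher in both numbers (33.0%, beside 22.2% of all genes) and 20 lower (22.0%, beside 26.1%). Their medians were 0.06 and 0.06, beside 0.15 and -0.29 for all genes kept. The counts were 28 and 11 with median ratio scaling, 26 and 25 with quantile normalization and 28 and 14 after centring on GC content. Ndufa6, of complex I, had 19.6 and 136 FPKM in sh and 28.3 and 209 in dd. Small nucleolar RNA genes were also more often lower than higher in dd. Of 108 such genes, which guide modification of ribosomal RNA, 10 were higher and 50 lower in both numbers, with medians of -0.78 and -0.58. These were 9.26% higher, beside 22.2% of all genes, and 46.3% lower, beside 26.1%. The 50 were 43 with median ratio scaling, 51 with quantile normalization and 62 after centring on GC content.

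Among the other housekeeping classes, splicing factors had more members higher than lower in dd. Of 39 genes of the SR, hnRNP and SF3 families, 19 were higher in both numbers (48.7%, beside 22.2% of all genes) and 5 lower, with medians of 0.32 and 0.19. Their median GC content was 44.1%, and of the protein-coding genes in the bin that holds this value 31.6% were higher in both numbers. The counts were 23 and 2 with median ratio scaling and 21 and 3 with quantile normalization. Srsf11, an SR-family protein, had 20.7 and 15.4 FPKM in sh and 33.2 and 25.6 in dd, with no overlap, and Hnrnpl, which regulates alternative exons, had 51.1 and 14.1 FPKM in sh and 22.3 and 8.67 in dd. Of 75 cytosolic ribosomal protein genes, 34 were higher (45.3%, beside 22.2% of all genes) and 17 lower. The counts were 22 and 10 with median ratio scaling but 19 each way with quantile normalization. Rps27a had 72.5 and 239 FPKM in sh and 112 and 376 in dd, and Rpl15 had 147 and 188 FPKM in sh and 202 and 264 in dd. These families have many processed pseudogenes, and 42.6% and 51.2% of the stretches of Rps27a and Rpl15 are shared. Of 36 proteasome genes, 10 were higher and 7 lower (6 and 7 with quantile normalization), and Psmc6, an ATPase subunit, had 39.8 and 45.6 FPKM in sh and 88.8 and 74.8 in dd.

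Cell cycle genes also had more members higher than lower in both numbers. Their medians in replicate 2 were below 0 but above the -0.29 of all genes kept. Of 29 DNA replication genes 10 were higher (34.5%, beside 22.2% of all genes) and 4 lower, with medians of 0.29 and -0.01. Of 27 mitosis genes 10 were higher (37.0%) and 2 lower, with medians of 0.21 and -0.17. More were higher than lower under both scalings as well. The median GC content was 46.9% for replication and 47.4% for mitosis genes. Of the protein-coding genes in the bins that hold these values, 31.6% and 20.2% were higher in both numbers. Ccne2, a cyclin of S-phase entry, had 0.396 and 1.58 FPKM in sh and 3.11 and 2.34 in dd. Cenpa, the histone of the centromere, had 17.3 and 24.9 FPKM in sh and 32.2 and 36.3 in dd. The groups did not overlap for these genes. Cdk1, the kinase of mitotic entry, had 29.5 and 37.0 FPKM in sh and 36.1 and 44.9 in dd. Cdc45, a component of the replicative helicase, was lower with 7.85 and 11.1 FPKM in sh and 4.96 and 3.75 in dd, and overlaps Ufd1 on the other strand. Of 41 replication-dependent histone genes kept, 7 were higher and 12 lower (10 and 7 with quantile normalization), and Hist1h2bg, which shares 56% of its stretches with other histone genes, had 7.30 and 3.36 FPKM in sh and 0.676 and 1.83 in dd.

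The remaining lists had no direction that held under both scalings, apart from the non-coding RNA genes, whose direction was lost after centring on GC content. Of 19 extracellular matrix and adhesion genes, 5 were higher and 7 lower (7 each way with median ratio scaling), and the fibronectin gene Fn1 had 31.9 and 79.0 FPKM in sh and 43.3 and 109 in dd. Of 27 actin and tubulin genes, 3 were higher and 6 lower (7 each way with median ratio scaling), and Actg1, a cytoplasmic actin with 61.4% shared stretches, had 192 and 158 FPKM in sh and 318 and 187 in dd. Of 14 imprinted genes, 1 was higher and 3 lower (3 and 1 with quantile normalization). H19, a maternally expressed non-coding RNA, had 5.21 and 3.40 FPKM in sh and 2.23 and 1.14 in dd, with no overlap. Of 23 long non-coding RNA genes of stem cells, 7 were higher (30.4%, beside 22.2% of all genes) and 5 lower. The counts were 10 and 2 with quantile normalization, but 5 and 6 after centring on GC content. Platr26 had 5.22 and 10.5 FPKM in sh and 8.79 and 14.4 in dd.

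**Figure D4:**
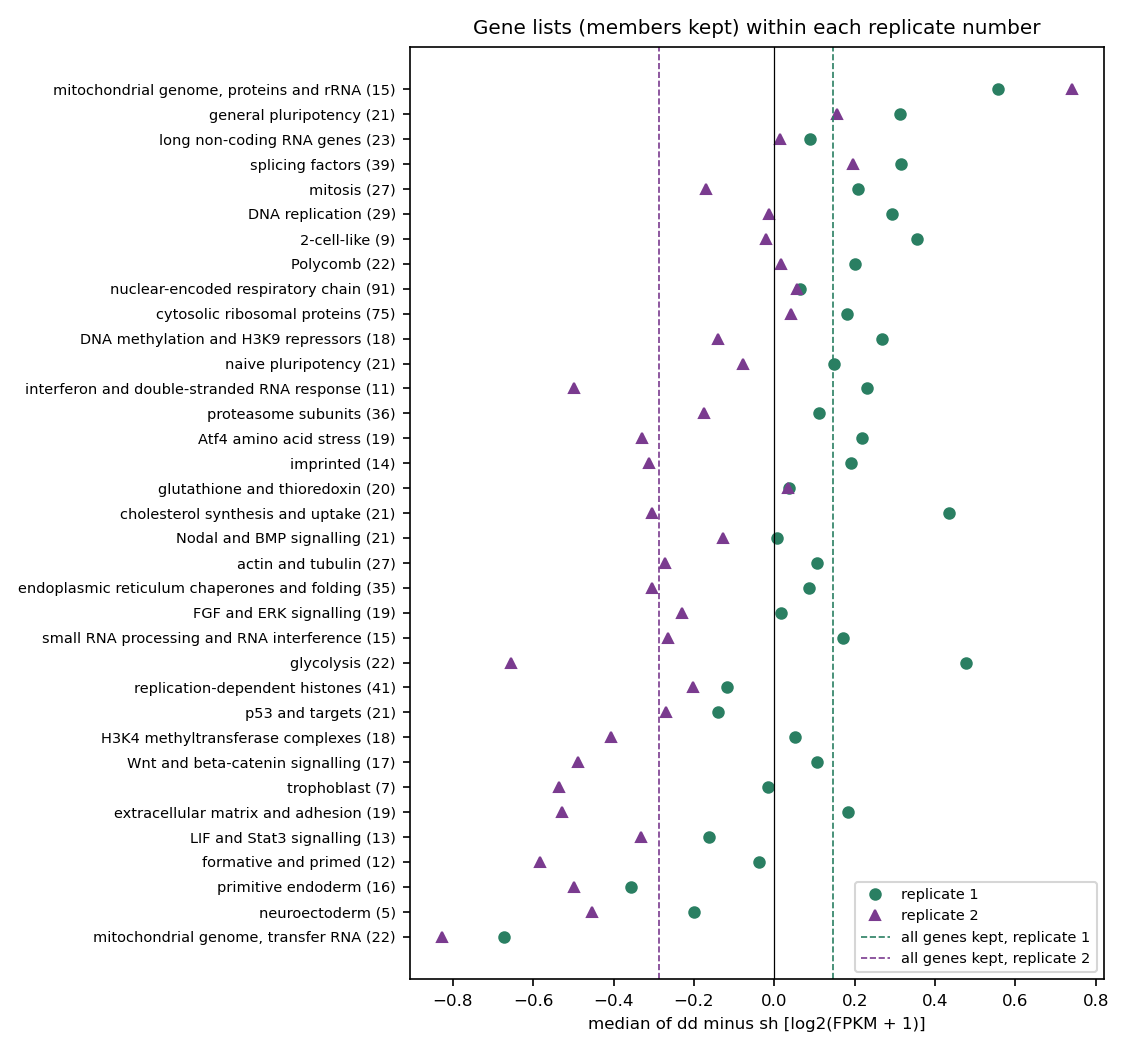
Median of dd minus sh in log2(FPKM + 1) (x axis) over the kept members of each gene list or class with at least 5 (their number in brackets), with circles for replicate 1, triangles for replicate 2 and dashed lines for the medians of all genes kept. The mitochondrial protein and ribosomal RNA genes lie to the right in both numbers (0.56 and 0.74) and the mitochondrial transfer RNA genes to the left (-0.67 and -0.83), while glycolysis lies on opposite sides (0.48 and -0.65).

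The difference in replicate 2 moved with the GC content of the transcripts. Over the 9686 protein-coding genes kept, the Spearman correlation of GC content with the difference was -0.546 in replicate 2 and -0.106 in replicate 1, over genes that share their libraries. From the lowest to the highest of 5 equal bins of GC content, the median difference went from 0.15 to -0.72 in replicate 2 and from 0.21 to 0.06 in replicate 1. The share of genes higher in dd in both numbers went from 45.2% to 5.52%, and the share lower from 13.4% to 39.8%. The 12 named genes higher in dd had a median GC content of 43.4% and the 12 lower of 56.2%, against 49.2% for the protein-coding genes kept. After the differences were centred on genes of like GC content, a step added after these values were seen, all 24 named genes kept their direction in both numbers. These genes were chosen for large differences in both numbers, so this was nearly fixed in advance and tests nothing. With the same centring the general pluripotency list had 10 members higher and 2 lower, the primitive endoderm list 2 and 7, and the splicing factors 17 and 3. For the endoplasmic reticulum list the counts were 7 and 13. Some genes named from lists did not keep their sign in replicate 2: the difference was then 0.17 for Zic2, 0.13 for Gata6 and 0.06 for Cdx1. With quantile normalization it was 0.07 for Sox11, 0.02 for Lrp2 and 0.02 for Gata6. The part of GC content in the differences was not tested beyond this centring.

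**Figure D5:**
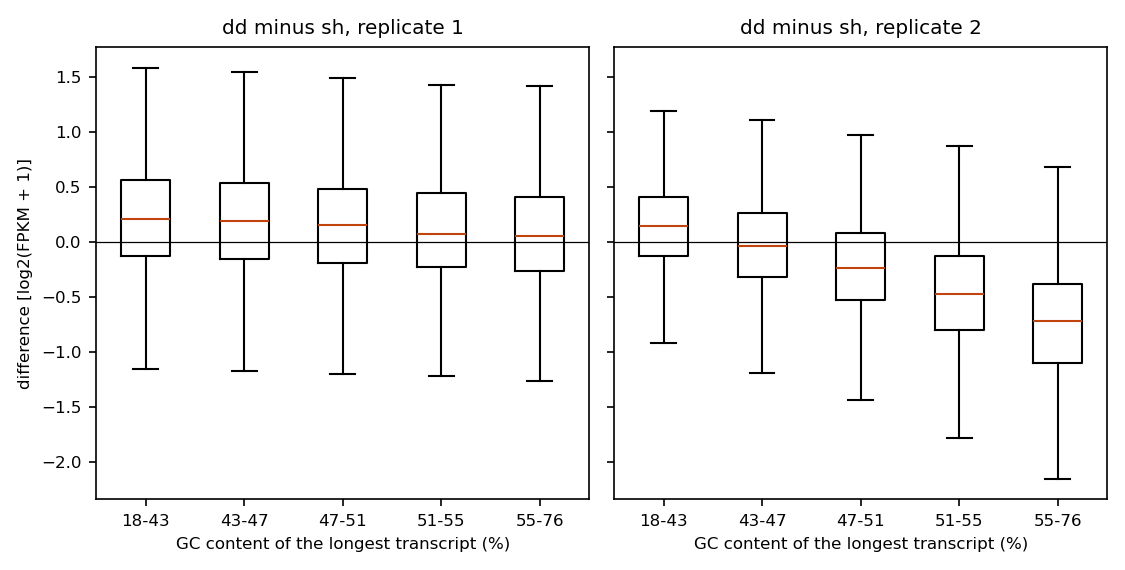
Difference of dd minus sh in log2(FPKM + 1) (y axis) over 5 equal bins of the protein-coding genes kept, by GC content in percent (x axis), in replicate 1 (left) and replicate 2 (right), with the median in orange, boxes from the 25th to the 75th percentile and whiskers to the last gene within 1.5 box lengths. The medians fall from 0.15 to -0.72 in replicate 2 and from 0.21 to 0.06 in replicate 1.

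The other groups of the series place these differences. In replicate 1 the sd library was nearer to dd than to sh for 10 of the 12 genes named as higher in dd and for 11 of the 12 named as lower. In replicate 2 it was nearer to dd for 4 and for 3 of the 12. The untreated library was nearer to sh for 9 and 7 of the 12 in replicate 1 and for 10 and 11 of the 12 in replicate 2. These counts use the same dd and sh libraries that chose the genes, so they describe where sd and control lay and test nothing.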

How the data were processed

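RNA was sequenced from 8 libraries of mouse embryonic stem cells, and the 4 libraries of sh and dd were compared. The deposited table gives FPKM per gene and library. Per the submitters' processing notes the tools were CASAVA 1.4 and HISAT2 with the mm10 build; for the read counter, annotation, FPKM formula and strand, the entry is: not given in the sources used here. Of 58420 rows, 6082 had no value. Read counts were recovered from FPKM and exon length (GENCODE M21, GRCm38), and 98.3% to 98.9% of values under 100 reads were whole within 0.02, so 3 reads on 1 kb correspond to 0.147 to 0.218 FPKM in these libraries. limma 3.58.1 (R 4.3.3), with trended moderation, was run on log2(FPKM + 1), with genes at a mean of at least 1 FPKM over the 4 libraries, Benjamini-Hochberg adjustment over 14038 genes and an adjusted p threshold of 0.05. All 8 libraries entered the fit to estimate the spread. Its differences understate the change of low genes. Tables were handled with Python 3.11.15 and pandas 2.3.3, and the code was tested on simulated data.

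Genes were named by 3 rules: the 12 per direction with the largest smaller difference within the 2 replicate numbers, among protein-coding or long non-coding genes with at least 10 reads in each library of the higher group and no predicted, clone or pseudogene name; examples with the largest such difference in each list; and Pou5f1, Sox2 and Nanog. Tdgf1, Zfp42, Klf4, Gata6, Trp53, Mdm2, Creb3l1, Kdelr1, Calr, Canx, Hspa5, Pdia6, mt-Atp6, mt-Rnr2 and Rhox5 are named outside these rules, with values already in view. The comparison, the 29 gene lists and the 8 gene classes were chosen with earlier results of these data known. The chaperone list and the centring on GC content (20 bins) were added after values were seen. Shared stretches are 31-base pieces, taken every 7 bases of a gene's transcripts, that occur in another gene's transcripts. Results for some genes are not reported here.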

Additional observations from a re-analysis of the deposited data

How the results depend on the processing

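limma called 0 genes in every setting run: pseudocounts of 0.1 and 0.5, no filter, a mean of at least 5 FPKM, quantile normalization, median ratio scaling, voom on recovered reads, robust moderation, only the 4 libraries, each library left out, and the replicate block. With the replicate block 656 genes had an unadjusted p under 0.05 (lowest adjusted p 0.862), with the block and only the 4 libraries 816 (0.269), and with the block and voom 1192 (0.352). Nothing in the labels says what a replicate number shares. The deviations of sh and dd from their group means correlated at 0.821 across genes, which with 2 numbers per group is a hint from the data and not a known pairing. The number of genes higher by at least 1 log2 within both numbers was 43, and 74 with a pseudocount of 0.1, 81 with quantile normalization and 74 with median ratios. The number lower was 88, and 395 and 171 with pseudocounts of 0.1 and 0.5, 45 at a mean of at least 5 FPKM and 55 with quantile normalization. Genes lower in both numbers at any size went from 3661 to 6931 with no filter and 1592 at the higher minimum. Of the 92 named genes, 90 kept the direction of their difference between group means with quantile normalization. That difference went to -0.22 for Dppa5a and -0.78 for mt-Rnr2, with and without the replicate block. For mt-Rnr2 it went to -0.10 after centring on GC content. Direction within both numbers was lost for more genes with quantile normalization, among them Sox11, Lrp2 and Dusp4, at 0.07, 0.02 and 0.05 in replicate 2. The cause was not tested.

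Leaving out a library sets unequal replicate numbers against each other, and the direction of 31 named genes then turned. Their lowest and highest differences were -2.59 and 0.67 for Acvr2b, -2.85 and 0.17 for Calr, -0.78 and 0.53 for Canx, -1.51 and 2.46 for Dppa5a, -0.21 and 1.11 for Fn1, -1.36 and 0.39 for Gata6, -2.48 and 0.13 for Gdf15, -0.69 and 0.89 for Hspa5, -3.65 and 0.74 for Hyou1, -3.71 and 1.66 for Insig1, -0.0065 and 0.40 for Klf4, and -4.67 and 3.22 for Lgr4. They were -0.036 and 0.94 for Mdm2, -0.86 and 1.98 for Ndufa6, -1.91 and 0.73 for Nqo1, -3.88 and 1.36 for Pced1b, -3.24 and 0.44 for Pcyox1l, -0.44 and 0.93 for Pdia6, -2.87 and 0.50 for Pfkl, -0.12 and 1.10 for Pgam1, -3.85 and 1.24 for Ppwd1, -0.23 and 1.51 for Rps27a, and -3.57 and 0.94 for Sdf2l1. For the rest they were -0.74 and 1.77 for Slc7a3, -1.45 and 0.17 for Sox11, -2.19 and 0.21 for Sox15, -1.51 and 0.19 for Sox17, -0.27 and 1.26 for Tdgf1, -3.70 and 2.49 for Tet2, -4.42 and 1.52 for Trp53, and -1.04 and 1.16 for mt-Rnr2. Depth limits genes with few reads, such as Bst2 and mt-Td.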

Other observations

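Genes annotated as pseudogenes of any kind took 11.2% of reads in sh and 15.3% in dd of replicate 1, and 29.8% and 37.4% in replicate 2. Of the 3357 processed pseudogenes kept, which are copies of messenger RNAs, 742 were higher in dd in both numbers and 731 lower, with 796 and 1135 after quantile normalization. Of 38 microRNA genes kept, 4 were higher and 5 lower, but 6 and 27 with quantile normalization and 4 and 27 after centring on GC content. Of 29 spliceosomal small nuclear RNA genes 2 were higher and 8 lower, with 4 and 12 after quantile normalization and 4 and 16 after centring. The summed FPKM of the trophoblast list was 21 and 40.4 in sh and 20.8 and 29.5 in dd, and that of the 2-cell-like list 35.8 and 38.6 in sh and 47.9 and 32.9 in dd, so neither separated the groups.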
